A study of Mus musculus with 16 samples.

Results

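Of 26704 OCT4 peaks in the merged list of 2TS22C cells, 3964 (14.8%) lay away from promoters in sequence that the reference genome marks as repeated. A peak was counted as a member if it was under 5 kb wide, if at least 50% of its bases were in lower case in the soft-masked reference, and if its midpoint lay more than 1 kb from any annotated transcript start. The members were 17.9% of the 22107 distal peaks, and the other 18143 distal peaks served as 1 comparison. The series holds 16 ChIP-seq libraries of mouse embryonic stem (ES) cells in 8 groups of 2 replicates. OCT4 and the remodeler subunit BRG1 were profiled in 2TS22C cells, and the histone mark H3K27ac in 2TS22C and ZHBTc4 cells. In 2TS22C cells the Sox2 gene, and in ZHBTc4 cells Pou5f1 (encoding OCT4), is expressed from a Tet-Off promoter that doxycycline shuts down. The OCT4 groups were SOX2 ON, without doxycycline, and SOX2 OFF, with doxycycline at 1 µg/ml for 26 h, both in 2TS22C cells. Cells of the ON groups carry the regulated transgene as well. The list used here gives 1 merged set of OCT4 coordinates and names no library, so a peak is present or absent, with no height, no depth and no difference between SOX2 ON and OFF.

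OCT4 is a POU factor that reads the octamer ATGCAAAT, and SOX2 is an HMG-box factor that reads cores such as CCATTGT and CCTTTGT, either of which was counted here as a SOX core. In ES cells both bind side by side on a composite motif, in which the SOX part stands directly before the octamer. Transposable elements carry their regulatory sequence to each new insertion, so copies of an element begin with the same candidate sites and then lose or gain bases independently. Long terminal repeats (LTRs) are the promoter-bearing ends of endogenous retroviruses, and B1 elements are short interspersed elements (SINEs) of rodents.

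The members fell into sequence families. When windows reaching 150 bases to each side of every midpoint were aligned to each other, 3506 members (88.4%) shared at least 100 bases at 75% identity or more with the central member of a family of 2 or more, and 458 stood alone. There were 162 such families. The 8 largest held 2102 members (53.0%), and 42 families had at least 10 members. The windows below are 140 bases from the central member of each of the 8 largest families, on the plus strand of GRCm38, printed because the comparisons of bound and unbound copies rest on them. Capitals in families 1 to 5 mark the 8-mers that were more frequent in occupied than in unoccupied copies, as described further on. Capitals in family 7 mark an 8-mer of family 1.
Family 1, chr9:76402078-76402217: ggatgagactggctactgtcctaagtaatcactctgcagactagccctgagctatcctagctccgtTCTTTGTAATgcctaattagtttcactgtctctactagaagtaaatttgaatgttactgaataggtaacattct
Family 2, chr5:69042290-69042429: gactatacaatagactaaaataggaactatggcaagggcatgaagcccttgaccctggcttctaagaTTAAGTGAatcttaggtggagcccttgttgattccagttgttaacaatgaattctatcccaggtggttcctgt
Family 3, chr14:26861278-26861417: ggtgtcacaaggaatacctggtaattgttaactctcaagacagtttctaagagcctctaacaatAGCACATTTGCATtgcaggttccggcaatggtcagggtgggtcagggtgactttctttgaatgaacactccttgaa
Family 4, chr10:128711480-128711619: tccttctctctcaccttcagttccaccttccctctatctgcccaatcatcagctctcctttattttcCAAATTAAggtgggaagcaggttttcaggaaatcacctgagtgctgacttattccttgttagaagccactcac
Family 5, chr2:20176686-20176825: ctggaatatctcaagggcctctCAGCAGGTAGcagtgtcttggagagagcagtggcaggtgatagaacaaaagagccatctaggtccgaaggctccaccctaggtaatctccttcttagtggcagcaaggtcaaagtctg
Family 6, chr1:49885496-49885635: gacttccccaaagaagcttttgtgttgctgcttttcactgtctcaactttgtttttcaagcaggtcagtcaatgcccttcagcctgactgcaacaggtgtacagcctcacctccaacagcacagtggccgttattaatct
Family 7, chr3:19234606-19234745: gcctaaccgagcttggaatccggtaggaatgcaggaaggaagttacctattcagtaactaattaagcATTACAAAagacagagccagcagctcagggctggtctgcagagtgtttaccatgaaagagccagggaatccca
Family 8, chr6:29308822-29308961: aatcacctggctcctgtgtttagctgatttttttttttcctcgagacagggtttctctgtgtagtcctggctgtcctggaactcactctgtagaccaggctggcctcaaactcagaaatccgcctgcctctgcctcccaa

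Family 1 was the largest, with 457 members on 20 chromosomes. Family 2 had 355, family 3 had 333, family 4 had 259, family 5 had 243, family 6 had 209, family 7 had 128 and family 8 had 118 members. The sizes fell steeply after these, with 81 members in the ninth family. Among the best-scoring genomic copies of each window, at least 50% aligned along 824 bp in family 1, 708 bp in family 6, 607 bp in family 7, 511 bp in family 3 and 444 bp in family 2. The stretch was shorter in family 5 (419 bp), family 4 (389 bp) and family 8 (151 bp).

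**Figure D1:**
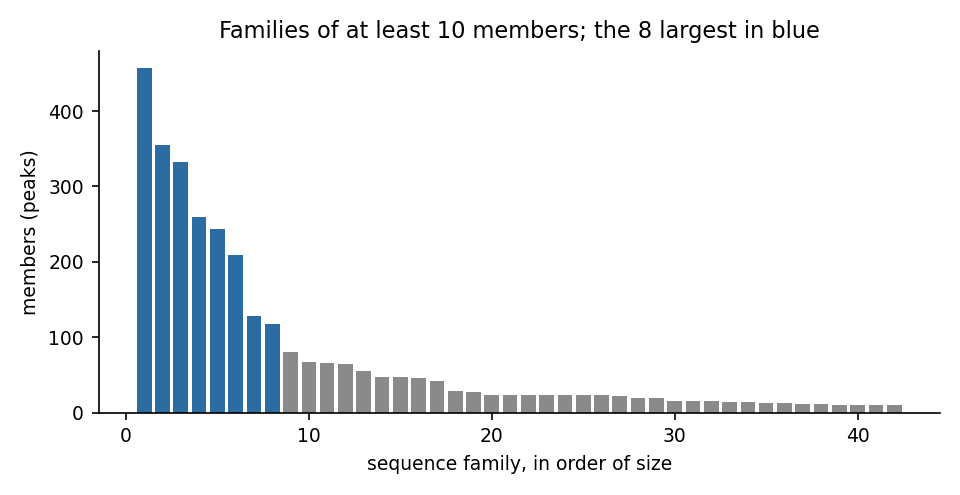
Number of members (y axis) in each of the 42 sequence families of at least 10 members, ordered by size on the x axis. The 8 largest, in blue, run from 457 to 118 members, and the ninth has 81.

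RefSeq annotates a few mobile elements on these chromosomes, and 2 kinds aligned to many members over at least 60 bases at 75% identity or more. The LTRIS4 retrotransposon sequence at chr17:34825295-34825783 aligned to 187 of 333 members of family 3 (56.2%) and to 198 members in all. Its alignment to the central window of family 3 spanned 107 bases at 82.2% identity. The SINE B1_Mus2 at chr7:103823699-103823836 aligned to 294 members (7.42%). Of these, 109 were in family 4 and 77 in family 8, which are 42.1% and 65.3% of those families. The central windows aligned to it over 102 bases at 86.3% identity in family 4 and over 119 bases at 94.96% in family 8, so alignment within these families includes B1 sequence. The other families were left unnamed. Families 1 and 7 were not independent: their widened windows aligned over 412 bases at 76.7% identity, on opposite strands. The widened windows of families 5 and 6 also shared sequence, with their longest alignment at 464 bases and 72.4% identity. Those of families 1 and 8 aligned over 652 bases at 67.6% identity, from position -81 to -711 of family 8. Shorter alignments joined families 2 and 4 (319 bases, 70.2%) and families 2 and 5 (216 bases, 80.1%).

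The members were slightly wider than other distal peaks and lay more often between genes. Median width was 373.5 bp, with the middle 50% between 274 and 530 bp, against 354 bp in other distal peaks. Median GC content was 44.2% in members, 46.1% in other distal peaks and 42.9% in 9111 masked flanking windows. These windows were placed 5 kb to each side of distal peaks, had the peak's width, were free of peaks and met the same masking and distance rule. Of the members, 65.3% (95% Wilson interval 63.8 to 66.7) were intergenic, 33.0% intronic and 1.72% exonic. The intergenic share was 46.3% (45.6 to 47.0) in other distal peaks and 61.6% (60.5 to 62.5) in masked flanking windows. Intervals cover counting error only. The masked rule was met by 22.7% of flanking windows over 1 kb from a start (22.3 to 23.1) and by 17.9% of distal peaks (17.4 to 18.4).

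The rule chose members by their masked share, which had a median of 74.4% and reached all bases in 230 members. At the threshold, 486 members had a masked share of 50% up to 55% and 522 other distal peaks one of 45% up to 50%. By chromosome the members made up 14.8% (chromosome 2) to 24.7% (X) of distal peaks, apart from Y with 6 of 14. Short reads from identical copies cannot be placed, so the share of 31-mers of a peak found at only 1 place in the genome is given throughout as a measure of how well reads could be placed. Its median was 59.9% in members, 66.1% in masked flanking windows and 100% in other distal peaks. Under 50% of 31-mers were at 1 place in 35.9% of members, 34.4% of masked flanking windows and 1.47% of other distal peaks.

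The members held OCT and SOX motifs far more often than masked flanking windows, but the composite motif less often than other distal peaks. The octamer was present in the central 200 bp of 356 members (8.98%, 8.13 to 9.91) and of 1.78% (1.53 to 2.07) of masked flanking windows. The SOX core was in 937 members (23.6%) against 6.33% of these windows, and the composite with at most 3 mismatches in 198 members (4.99%) against 0.768%. The odds ratios were 5.45, 4.58 and 6.79, with adjusted p of 3.73e-75, 8.72e-162 and 9.07e-50 in Fisher's exact test, two-sided and adjusted over the 3 motifs. With 1 member per family the odds ratios were 3.31 for the octamer, 2.41 for the SOX core and 13.3 for the composite. The motif lay in masked bases in 84.6% of members with an octamer and 81.3% of those with a SOX core. In other distal peaks these shares were 8.95% and 9.51%. The rule itself favours such a difference, since the midpoint base was masked in 78.2% of members and 12.7% of other distal peaks. For the composite the share in masked bases was not tested. At a masked share of 90% or more the odds ratios were 9.37 for the octamer and 4.73 for the SOX core. The composite was then in 1.39% of members against 0.752% of windows and did not pass (odds ratio 1.86, Fisher's exact adjusted p = 0.0980).

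Against other distal peaks the composite was lower, at 4.99% (4.36 to 5.72) compared with 10.2% (9.81 to 10.7), an odds ratio of 0.461 (Fisher's exact test, adjusted p = 1.13e-27). With at most 2 mismatches it was in 25 members (0.631%) and in 2.03% of other distal peaks. The SOX core was slightly higher in members (23.6% against 21.8%, odds ratio 1.11, Fisher's exact adjusted p = 0.0215), while the octamer shares of 8.98% and 8.19% did not pass the test (Fisher's exact adjusted p = 0.106). Both of these depended on the families: with 1 member per family the octamer was in 5.65% and the SOX core in 14.0% of members, each lower than in other distal peaks (odds ratios 0.671 and 0.584, Fisher's exact adjusted p of 0.0304 and 4.06e-06). The composite then did not differ past the threshold, at 9.35% of members (odds ratio 0.905, Fisher's exact adjusted p = 0.544).

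**Figure D2:**
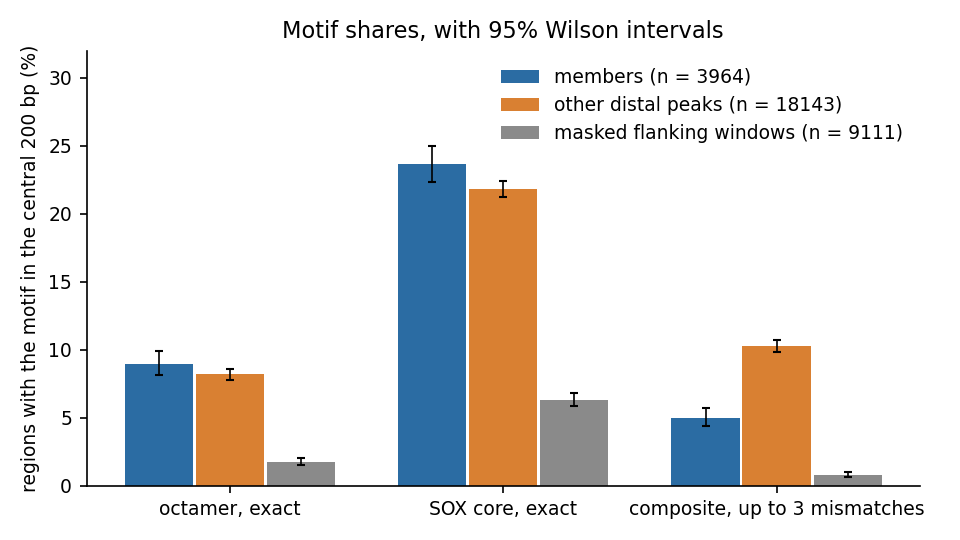
Share of regions (y axis, %) whose central 200 bp hold each motif (x axis), for 3964 members, 18143 other distal peaks and 9111 masked flanking windows. Bars are shares and lines are 95% Wilson intervals. Members stand at 8.98%, 23.6% and 4.99%, above masked flanking windows for each motif and below other distal peaks for the composite.

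The 3 motifs were spread unevenly over the families. Of the 356 members with an octamer, 216 were in family 3, where 64.9% of members had it, while no member of families 1, 2 and 5 did. The SOX core was in 58.0% of family 1 and 51.8% of family 2, but in 4.53% of family 5. The composite was in 2.28% (1.73 to 3.01) of members of the 8 largest families, in 7.55% (6.28 to 9.05) of members of smaller families and in 9.61% (7.23 to 12.7) of members that stood alone. The last value is close to the 10.2% of other distal peaks. The closest match to the composite had a median of 5 mismatches in families 1, 3, 5, 6, 7 and 8, 6 in family 2 and 4 in family 4.

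A search over all 8-mers pointed to the same families. Among all 32896 8-mers, members held 4371 (13.3%) at a higher and 5151 (15.7%) at a lower share than masked windows beside peaks did, at an adjusted p under 0.05 in Fisher's exact test. The 5 with the largest ratio among those in at least 1% of members were AGGGCACG, CGAAGCCC, AATGTCGC, ACGAAGCC and GGGCACGA. AGGGCACG was in 72 members (1.82%) and in 2 masked flanking windows (0.0220%), a ratio of 82.7 (95% exact counting interval 22.1 to 696.3, Fisher's exact adjusted p = 2.89e-33). The ratios of the other 4 ran from 63.6 for CGAAGCCC (21.02 to 314.6) to 51.3 for GGGCACGA (16.8 to 255.2), each with 3 masked flanking windows. Each belonged almost wholly to a single family: 70 of the 72 members with AGGGCACG and 82 of the 83 with CGAAGCCC were in family 2, and 69 of the 74 with AATGTCGC were in family 3. With 1 member per family, 261 8-mers were more frequent and 127 less frequent.

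Further 8-mers were singled out after their values were seen, because they resemble OCT or SOX sites. GCATTACA was in 373 members (9.41%) and 0.296% of masked flanking windows. Of these members 248 were in family 1 and the rest were spread over other families, 37 families in all, and with 1 member per family it was still more frequent (3.55%, Fisher's exact adjusted p = 8.04e-158 over all members and 3.67e-10 with 1 per family). ACAATAGC was in 417 members (10.5%) against 0.351%, of which 222 were in family 3, and with 1 member per family it did not pass the threshold (Fisher's exact adjusted p = 0.404). ATGCAAAT itself was in 60 families and passed with 1 member per family (5.65%, Fisher's exact adjusted p = 3.38e-05).

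The same sequences occur in the genome outside peaks, and the share of copies that lay in a peak differed widely between families. A copy was a place that aligned to a family's central window over at least 150 bases at 75% identity or more, and it was called occupied if at least 50% of its length lay in any listed peak. Of 876 copies of family 1, 437 were occupied (49.9%, 46.6 to 53.2). Family 7 followed with 203 of 537 (37.8%, 33.8 to 42.0). Family 3 had 330 of 1210 (27.3%, 24.8 to 29.9) and family 6 had 233 of 889 (26.2%, 23.4 to 29.2), whose intervals overlap. Family 5 had 342 of 1668 (20.5%), family 2 had 373 of 2256 (16.5%), and family 4 had 188 of 2478 (7.59%, 6.61 to 8.70). Of these 188 copies, 148 lay in members, fewer than the 259 members of family 4. Some of its members therefore held no occupied copy, which limits comparison of its share with those of other families. The same held to a lesser degree in family 1 (426 such copies against 457 members), family 3 (305 against 333) and family 6 (204 against 209). In families 2, 5 and 7 such copies outnumbered the members. In family 8, 11 of 1377 copies were occupied (0.799%, 0.447 to 1.42). Its shared stretch of 151 bp is close to the minimum of 150 bases for a copy, and 7 of the occupied copies lay in members, so most of the 118 members of family 8 held no occupied copy and its share is not comparable with those of the other families. The central window is itself a member, and families were built from members only, around the member with most neighbours. Occupied copies were thereby favoured to resemble it. This bears on all comparisons below of identity, 8-mers, site forms and match to the window between occupied and unoccupied copies. Its part in the differences was not tested. Median identity to the central window was 84.4% in occupied and 82.2% in unoccupied copies of family 1, and 90.3% and 87.8% in family 2.

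Occupancy differed with sequence identity in several families. In family 6, 18 of 19 copies at 90% identity or more and 80 of 149 at 85% up to 90% were occupied, against 87 of 466 at 80% up to 85%, whose median 31-mer share at 1 place was 0%. In family 1 the share was 32.2% of copies at 75% up to 80% identity and 61.2% at 85% up to 90%, with 48.4% of the 31 copies at 90% or more. In family 5 it ranged only from 19.2% to 26.5% over the same 4 bands of identity.

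**Figure D3:**
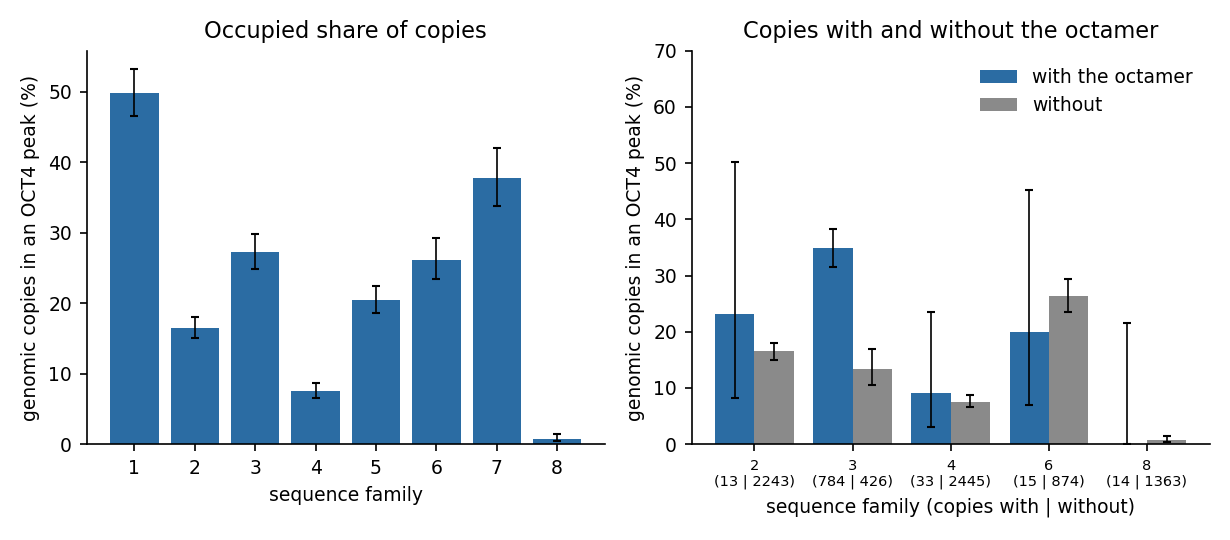
Left, share of genomic copies of each of the 8 largest families (x axis) that lay in an OCT4 peak (y axis, %). Right, the same share for copies with and without the octamer in families with at least 10 copies that hold it, with the numbers of copies in brackets; lines are 95% Wilson intervals. Family 1 is highest at 49.9%, family 8, of which few members held an occupied copy, is at 0.799%, and in family 3 the share is 34.8% with and 13.4% without the octamer.

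In family 3, copies with the octamer were occupied more often than copies without it. Of 784 copies with ATGCAAAT, 273 were in a peak (34.8%, 31.6 to 38.2), against 57 of 426 without it (13.4%, 10.5 to 16.9), a difference of 21.4 percentage points (Fisher's exact test, adjusted p = 2.15e-15 over 16 pairs of family and motif). In the search over 790 8-mers of this family, of which 54.1% passed the threshold, the octamer had the smallest adjusted p of all: it was in 82.7% of occupied and 58.1% of unoccupied copies (Fisher's exact adjusted p = 1.06e-13). CATTTGCA (80.6% against 56.8%) and AATGTGCT (86.4% against 65.0%), which overlap it in the window, came next. Both groups had few 31-mers at 1 place, with medians of 23.0% in occupied and 25.8% in unoccupied copies. Among the 212 copies with at least 50% of 31-mers at 1 place, of which 35 were occupied, the difference was 7.33 points and did not pass the test (Fisher's exact adjusted p = 0.583).

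The octamer of family 3 had a SOX-like core at a fixed distance, on the side opposite to that in the composite motif. Of 216 octamers in the central 200 bp of its members, 191 (88.4%) were followed by ATTGT after 5 intervening bases, seen in the printed window as acaat, 5 bases and ATTTGCAT on the other strand. Among 1622 octamers of other distal peaks, the most frequent spacing within 25 bases was that of the composite motif, with ATTGT starting 14 bases before the end of the octamer, in 28 cases (1.73%). In family 6, 10 of 14 octamers overlapped ATTGT by 2 bases. Members of 1 family share sequence, so these counts describe sequences and are not independent cases.

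Of the common forms of the family 3 site, 1 was occupied less often than the others. The 4 most common forms of 20 bases at this place, from position 51 to 70 after the midpoint of the central window, are printed with capitals at bases that differ from the central window.
Site 3a: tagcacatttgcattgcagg
Site 3b: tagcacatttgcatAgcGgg
Site 3c: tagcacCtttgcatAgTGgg
Site 3d: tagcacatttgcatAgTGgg

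Site 3a was occupied in 106 of 279 copies (38.0%, 32.5 to 43.8), site 3b in 57 of 132 (43.2%, 35.0 to 51.7) and site 3d in 19 of 61 (31.1%, 20.9 to 43.6), and these intervals overlap. Site 3c was occupied in 4 of 82 copies (4.88%, 1.91 to 11.9), below the intervals of the other 3. Sites 3c and 3d differ by the single substitution C7A, counted from 1 at the 5′ end with the base of 3c first, which completes the octamer on the other strand. The median share of 31-mers at 1 place was 12.5% in copies with 3c and 44.7% in copies with 3d, but 10.4% in copies with 3a. These forms were looked at after the 8-mers were known and were not tested, and copies with the same form may also share other bases.

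**Figure D4:**
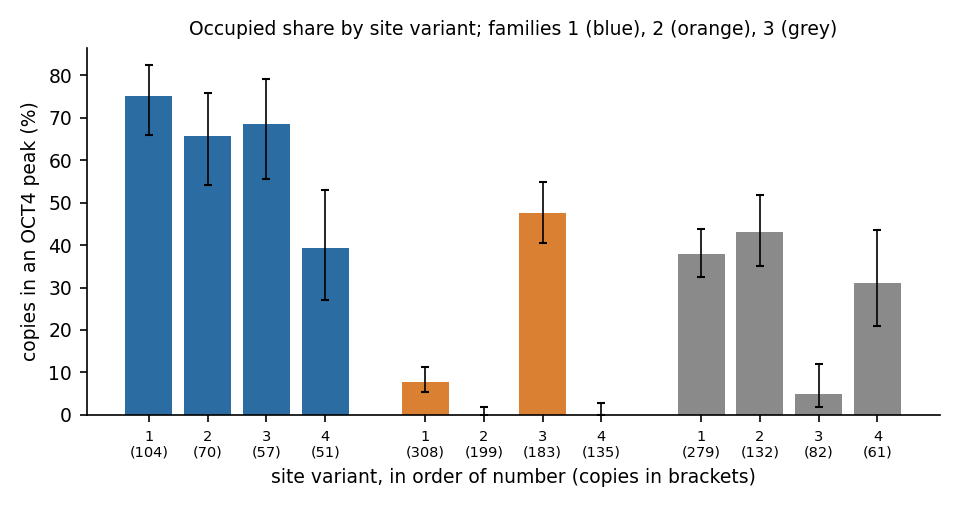
Share of copies in an OCT4 peak (y axis, %) for the 4 most common 20-base forms of the site in families 1, 2 and 3 (x axis, numbers of copies in brackets), with 95% Wilson intervals. In family 3 the third form is at 4.88% and the others at 31.1% to 43.2%; in family 2 the third form is at 47.5% and the others at 7.79% or 0%.

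Family 1 had no octamer and no composite match in the central 200 bp of its members, and the largest occupied share of families 1 to 7. Its leading 8-mer was CTTTGTAA, in 304 of 437 occupied copies (69.6%) and 152 of 439 unoccupied copies (34.6%; Fisher's exact adjusted p = 1.55e-22). ATTACAAA (70.3% against 38.5%) and TACAAAGA (62.0% against 30.8%) overlap it on the other strand. Of 916 8-mers tested in this family 59.3% passed, so a difference as such was common, and these 3 had the smallest p. Copies with CTTTGTAA were occupied in 66.7% (62.2 to 70.8) and copies without it in 31.7% (27.4 to 36.3). The difference was as large among the 494 copies with at least 50% of 31-mers at 1 place, where 66.9% of occupied and 32.1% of unoccupied copies held it (Fisher's exact adjusted p = 6.29e-12). The median share of 31-mers at 1 place was 53.8% in occupied and 53.3% in unoccupied copies. The composite, in turn, was found in 8 copies of family 1, none of them occupied, against 437 of 868 without it (Fisher's exact adjusted p = 0.0303); in copies with at least 50% of 31-mers at 1 place the difference was -50.6 points against -50.3 in all copies, over 4 copies with the composite, and did not pass (Fisher's exact adjusted p = 0.243).

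In the window of family 1, CTTTGTAA overlaps ATGC, the first 4 letters of the octamer. The 4 most common forms of 20 bases, from position 6 to 25, were as follows, with capitals at differences from the central window.
Site 1a: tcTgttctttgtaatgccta
Site 1b: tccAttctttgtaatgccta
Site 1c: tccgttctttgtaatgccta
Site 1d: tcTAttcAttgtaatgcctG

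Sites 1a, 1b and 1c were occupied in 78 of 104 (75%, 65.9 to 82.3), 46 of 70 (65.7%) and 39 of 57 copies (68.4%). Site 1d, which differs from 1a by G4A, T8A and A20G, was occupied in 20 of 51 copies (39.2%, 27.03 to 52.9), an interval below that of 1a. Its copies were less like the central window, with a median identity of 78.9% against 86.1% for 1a, while the median shares of 31-mers at 1 place were 46.6% and 49.7%. In the related family 7, copies with CTTTGTAA were occupied in 45.5% (37.2 to 54.0) and copies without it in 35.3% (30.8 to 40.1), and with and without TACAAAGA in 46.0% (37.1 to 55.2) and 35.6% (31.2 to 40.3), so for both the intervals overlap. For ATTACAAA they do not, with 149 of 308 copies with it occupied (48.4%, 42.9 to 53.9) and 54 of 229 without it (23.6%, 18.5 to 29.5). These 8-mers were tried in family 7 after their values in family 1 were known, and no test was made. In the search of family 7 itself 27.6% of 1047 8-mers passed, and the 3 with the smallest p (GACATAGC, GGTTAAAC and CTATGTCA) were each in under 3% of occupied and over 20% of unoccupied copies.

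**Figure D5:**
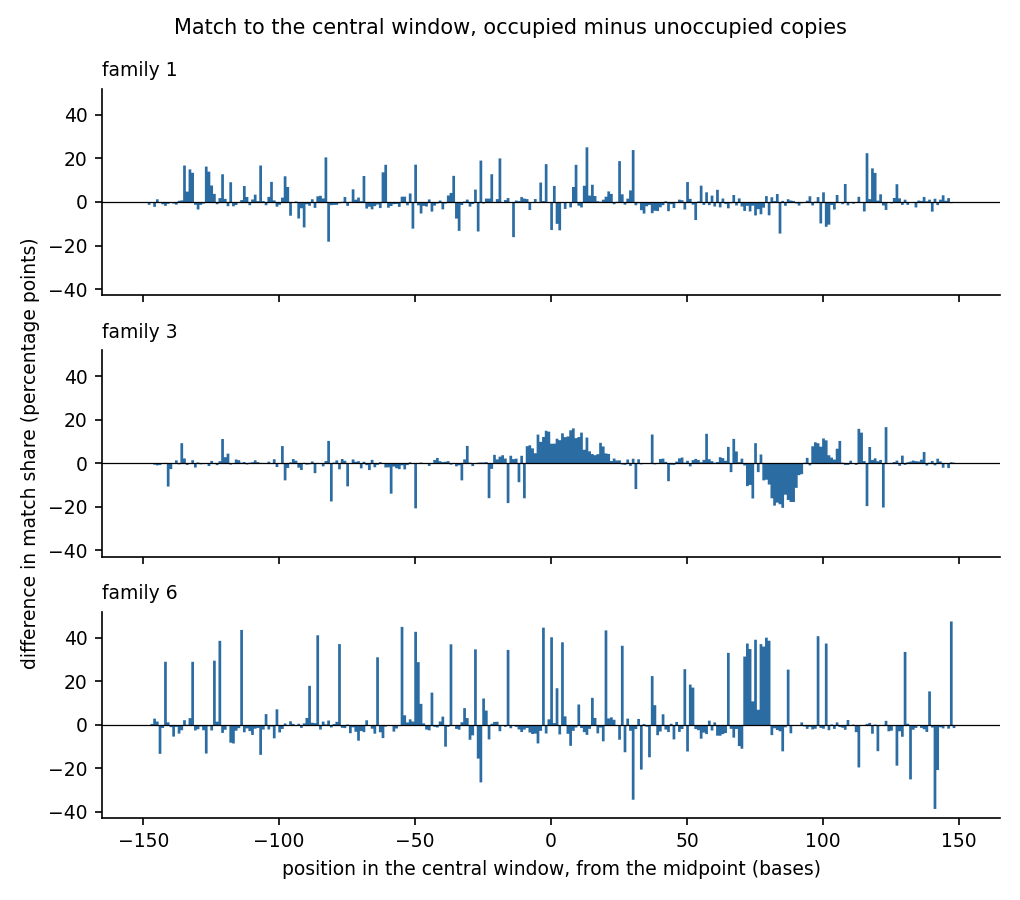
Difference between occupied and unoccupied copies in the share that match the family's central window (y axis, percentage points), at each base from the midpoint (x axis), in families 1, 3 and 6. Values above 0 are bases that match more often in occupied copies. The largest are 25.4 points in family 1, 16.8 in family 3 and 47.6 in family 6, and in family 6 many single bases along the window exceed 20 points.

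In family 2, occupied and unoccupied copies differed at 78.4% of the 1055 8-mers tested. TCACTTAA was in 131 of 373 occupied copies (35.1%) and 193 of 1883 unoccupied ones (10.2%; Fisher's exact adjusted p = 1.04e-26), while AGAAGAGA and GAAGAGAA were in 0 of the 373 occupied copies, which allows a share of up to 0.804%, and in 333 and 328 unoccupied copies. The 4 most common forms, from position -31 to -12, were as follows.
Site 2a: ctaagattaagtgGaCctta
Site 2b: ctaagattaTgtgGatAttT
Site 2c: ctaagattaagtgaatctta
Site 2d: ctaagattaagCAaaCctta

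Site 2c was occupied in 87 of 183 copies (47.5%, 40.4 to 54.8) and site 2a, from which it differs by G14A and C16T, in 24 of 308 (7.79%, 5.29 to 11.3). Site 2b was occupied in 0 of 199 copies, which allows a share of up to 1.51%, and site 2d in 0 of 135, which allows up to 2.22%. The copies of 2b and 2d had a median of 0% of 31-mers at 1 place, against 22.6% for 2c and 33.0% for 2a. Their lack of peaks therefore cannot be told apart from reads that could not be placed. Median identity to the central window was 94.3% in copies with 2c and 87.2% in copies with 2a, and over all copies of the family 31.2% were occupied at 90% identity or more and 8.51% at 85% up to 90%; the part of identity in the difference between 2a and 2c was not tested. Among copies with at least 50% of 31-mers at 1 place, TCACTTAA did not pass (13.6% against 11.9%, Fisher's exact adjusted p = 0.914).

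In family 4, occupied copies held an A/T-rich stretch more often than unoccupied ones. CAAATTAA was in 85.1% of 188 occupied and 51.2% of 2290 unoccupied copies (Fisher's exact adjusted p = 4.47e-18), followed by ATTTGTAA (87.2% against 55.1%) and TTTACAAA (86.7% against 55.6%). Of 700 8-mers 53.7% passed. These 3 also passed among copies with at least 50% of 31-mers at 1 place. CAAATTAA, in capitals in the printed window, was in 131 of the 259 members of this family, at a median of 39 bp from the peak midpoint. Copies with a composite match were occupied in 19 of 72 cases (26.4%, 17.6 to 37.6) against 7.02% of those without (Fisher's exact adjusted p = 5.68e-06), the only one of the 5 family and motif pairs past the threshold to pass as well in copies with at least 50% of 31-mers at 1 place. With at most 2 mismatches only 2 copies of family 4 held the composite, and none of them was occupied (difference -7.59 points).

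In family 5 neither the octamer nor the SOX core was common, and the leading 8-mers had another sequence. CTACCTGC was in 81.9% of 342 occupied and 57.8% of 1326 unoccupied copies, and ACCTGCTG in 83.9% against 60.6% (Fisher's exact adjusted p = 1.13e-14 for each), with AGCAGGTA next (82.2% against 60.7%). All 3 belong to the stretch in capitals, cagcaggtag, and only 18.3% of 807 8-mers in this family passed. They also passed among copies with at least 50% of 31-mers at 1 place, where CTACCTGC was in 82.0% against 57.2% (Fisher's exact adjusted p = 7.53e-07). The site lay at a median of 43 bp from the peak midpoint in the 173 of 243 members with CTACCTGC. This median was 72 bp for CTTTGTAA in family 1, 52 bp for TCACTTAA in family 2 and 51 bp for ATGCAAAT in family 3. No baseline for these distances was taken. A composite match was in only 30 copies, of which 12 were occupied (40.0%, against 20.1% without it, Fisher's exact adjusted p = 0.0380). With at most 2 mismatches 1 copy held it, which was unoccupied (difference -20.5 points).

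Occupied and unoccupied copies of family 6 differed both in many 8-mers and in how unique they were. The 3 leading 8-mers were all lower in occupied copies: CTCTAAGA was in 0 of 233 occupied (up to 1.29% allowed) and 257 of 656 unoccupied copies (39.2%), and AAGAAACT and CAAAGAAA were each in 5 and 294 (Fisher's exact adjusted p = 4.40e-39 for each). Unoccupied copies had a median of 11.9% of 31-mers at 1 place and occupied ones 60.5%, the widest gap of the 8 families, and 64.6% of 1051 8-mers passed. The part of placement in these differences was not tested. A composite match was rare, in 9 copies, but 8 of these were occupied, against 225 of 880 without it (Fisher's exact adjusted p = 7.55e-04 over the 16 pairs). Among copies with at least 50% of 31-mers at 1 place the difference was 45.3 points, against 63.3 in all copies, and did not pass (Fisher's exact adjusted p = 0.100).

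Genes were then counted with at least 1 member within 50 kb of any of their starts. Of all protein-coding genes 19.7% (4314 of 21911) had one. Among 12 pluripotency genes only Zfp42 did (8.33%), although all 12 had a distal peak of any kind in that range. The list was Pou5f1, Sox2, Nanog, Klf2, Klf4, Klf5, Esrrb, Tfcp2l1, Sall4, Prdm14, Zfp42 and Tbx3. The member near Zfp42, which encodes the ES cell marker REX1, was 46874 bp upstream of its start at chr8:43353623-43354085. It was wholly masked, belonged to family 4, and held no octamer. None of 10 differentiation genes, namely Gata4, Gata6, Sox17, Foxa2, T, Eomes, Cdx2, Pax6, Sox1 and Otx2, had a member within 50 kb, and 8 of them had a distal peak.

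Genes of repeat silencing had members nearby more often than the background, with 7 of 12 (58.3%). Trim28, the corepressor recruited by KRAB zinc finger proteins, Setdb1, a histone H3K9 methyltransferase, and Dnmt1, the maintenance DNA methyltransferase, each had 2. Dnmt3l, Uhrf1, Atrx and Zfp809 each had 1, and Dnmt3a, Dnmt3b, Morc3, Daxx and Hells had 0. The nearest member of Trim28 was annotated as intronic in Trim28, 7408 bp upstream of the closest of its starts, at chr7:13016591-13016896, that of Setdb1 13018 bp upstream at chr3:95370027-95370412, and that of Dnmt1 19471 bp upstream at chr9:20979225-20979493. The peaks near Trim28 and Dnmt1 stood alone by sequence, and that near Setdb1 was in a family of 55. Their masked shares were 74.8% for Trim28, 57.6% for Dnmt1 and 53.6% for Setdb1, the last 2 near the threshold of 50%. Again all 12 genes had some distal peak, against 13340 of all protein-coding genes. Of 365 numbered Zfp genes, named for zinc finger proteins, 109 (29.9%) had a member and 252 a distal peak of any kind. Zscan4 genes mark a transient state of ES cells resembling the early embryo. Of 9 genes with names that start with Zscan4, 3 had a member, namely Zscan4a, Zscan4d and Zscan4-ps1. The 9 include the pseudogenes Zscan4-ps1, Zscan4-ps2 and Zscan4-ps3. These are counts with no test, and lists differ in gene density and in clustering of their genes.

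Of 30 Platr genes, long non-coding RNAs named for their association with pluripotency, 9 (30.0%) had a member within 50 kb, against 13.3% (1351 of 10143) of all long non-coding genes. A distal peak of any kind was within that range of 29 of the 30, against 5786 of all long non-coding genes. Platr16 had 5 and Platr10, Platr21 and Platr27 had 2 each. The nearest member of Platr16 lay in its intron, 7547 bp after the start, at chr4:145417689-145417936. It was in a family of 19 and had 22.02% of its 31-mers at 1 place. The nearest of Platr10, also intronic, was in family 5, at chr3:75650530-75651051. The nearest of Platr21 stood alone by sequence, at chrX:139335120-139335324.

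Single members stood out by width or motif. The widest was 4291 bp at chr11:3100427-3104717, intergenic, and the next was 3904 bp at chr14:19415740-19419643 in Gm21738. Both belonged to 1 family of 7 members. The third, of 3461 bp at chr13:119596054-119599514 in an intron of Tmem267, stood alone. None of the 3 held an octamer or a SOX core despite their width. Overlap of these 3 with input peaks or blacklisted regions was not checked. No member had a perfect composite. Of those with 1 mismatch, the first by chromosome was a wholly masked peak of family 3 at chr2:17892793-17893231, followed by another of family 3 at chr9:6002288-6002674 and a member of family 4 at chr11:58002380-58002610. All 3 were intergenic and held the octamer. Their 31-mers were at 1 place in 34.7%, 23.2% and 88.6% of cases.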

How the data were processed

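The deposited file holds the chromosome, start and end coordinate of merged OCT4 peaks and no other value. The authors aligned reads to mm10 (GRCm38) with STAR 2.6.1c, removed duplicates with Picard, called peaks on read pairs with MACS2 2.1.1.20160309 and joined the peak sets by BEDTools. Which libraries were joined, and if replicates had been combined beforehand, is not given in the sources used here. The peak-calling settings that the paper states name no input control. It reports removing peaks over 5 kb and those overlapping input peaks or blacklisted regions. If the list used here had been filtered in this way is not given. A peak missing from the list cannot be told apart from a peak below the calling threshold.

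Masked bases were the lower-case letters of the NCBI GRCm38 sequence, and starts and genes came from GENCODE M21. Motifs were searched on both strands. The composite was CATTGTT followed directly by ATGCAAAT. Alignments used BLASTN 2.17.0. 8-mers in 5% to 95% of a family's copies were tested in families with at least 20 occupied and 20 unoccupied copies, which left out family 8. Fisher's exact tests were two-sided, with Benjamini-Hochberg adjustment (SciPy 1.17.1, Python 3.11.15). For an 8-mer in 0 occupied copies, the share allowed is 3 divided by the number of occupied copies, which is not a Wilson limit. Regions and copies are units here, not biological replicates, and copies of a family are related by descent, so p-values describe this list. In the test on simulated data for members against masked flanking windows, 20 8-mers placed in 3% of 3964 windows were all recovered, and 0 of 32896 were called with none placed. It used flanking windows split at random, with each 8-mer placed at random, so it does not cover the relatedness of members within families.

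The members and lists were chosen with earlier results of these data known. By rule, the text names the 8 largest families, the 5 8-mers with the largest ratio, the 3 8-mers with the smallest adjusted p per family, the nearest members of the listed genes, the 3 widest members and the 3 closest to the composite. No repeat annotation was used beyond the few RefSeq elements, so families carry numbers. BRG1 and H3K27ac were not analysed here.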

Additional observations from a re-analysis of the deposited data

How the results depend on the processing

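No paired analysis was possible because only merged coordinates were used here, without values for single libraries. Leaving out a replicate was not possible for the same reason.

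Requiring 75% or 90% masked bases left 1946 or 862 members. Against other distal peaks, the odds ratios of the octamer and the SOX core turned to 0.671 and 0.584 with 1 member per family and to 0.590 and 0.944 in peaks with at least 50% of 31-mers at 1 place, and that of the composite was 0.905 and no longer past the threshold with 1 member per family. Against masked flanking windows, the odds ratios with 1 member per family were 3.31, 2.41 and 13.3 for octamer, SOX core and composite, and the composite did not pass at a masked share of 90% or more (odds ratio 1.86, Fisher's exact adjusted p = 0.0980). With 1 member per family 261 8-mers were more and 127 less frequent, and in the central 100 bp 2966 were less frequent; fewer regions were tested in the first case, and shorter ones in the second. Counting any overlap moved occupancy over all 8 families from 18.7% to 20.0%, and a minimum identity of 85% to 23.5%.

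Of 16 family and motif pairs, 5 passed; this fell to 1 with copies of at least 50% of 31-mers at 1 place, where fewer copies were tested and the composite differences were -50.6, 19.9 and 45.3 points in families 1, 5 and 6 (-50.3, 19.9 and 63.3 in all copies) and that of the octamer 7.33 in family 3 (21.4). With at most 2 mismatches 2 pairs passed, out of fewer, since no copy of families 1, 2, 6, 7 and 8 then held the composite. These were the octamer and the composite of family 3. The latter was in 5 copies, all occupied (73.0 points, Fisher's exact adjusted p = 0.00812). It had not passed with at most 3 mismatches (Fisher's exact adjusted p = 0.176). The composite difference turned to -7.59 points in family 4 and -20.5 in family 5, neither past the threshold. The restriction to copies with at least 50% of 31-mers at 1 place was chosen for the 8-mers after seeing the data. It left 61, 106, 24 and 303 8-mers called in families 2, 4, 5 and 6. It left 0 in families 3 and 7 by Fisher's exact test, with 81 and 101 at an unadjusted p under 0.05; fewer copies entered these tests.

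Within 10 kb, 0 pluripotency, 4 repeat silencing, 4 Platr, 26 Zfp and 0 Zscan4 genes had a member, beside 4.85% of all protein-coding and 2.98% of all long non-coding genes. Within 100 kb the counts were 3 pluripotency, 8 repeat silencing, 1 differentiation, 18 Platr, 164 Zfp and 5 Zscan4 genes, beside 33.3% and 23.8%.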
